A study of Mus musculus with 140 samples.

Results

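When mouse embryonic stem cells were moved from LIF to retinoic acid, a set of genes rose within the first days and fell back before the week was over, and 100 of them are described here. They were chosen by their signals in the retinoic acid course itself, as the 100 genes with the highest transient score among 11967 genes whose mean signal on days 1 to 3 was above the median of their array table (283.3 on the A array and 89.2 on the B array), out of 18193 genes measured. The score is the mean of days 1, 2 and 3 minus the higher of day 0 and the mean of days 5 and 6, taken on log2(signal + the 20th percentile of the table), that is with 63.1 added on A and 21.8 on B. Each gene was read from the probe set that names it alone and had the highest mean signal over the 7 retinoic acid samples, which placed 57 genes on A and 43 on B. The members were selected on the retinoic acid values of days 0 to 3, 5 and 6, so these are given as a description with no test. Day 4 of that course and every sample of the other courses were not used in the choice.

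All samples came from CCE, an embryonic stem cell line from male 129/Sv mice, with 1 sample per course and day and no replicate cultures. In the retinoic acid course the cells had no LIF, the cytokine that keeps such cells undifferentiated, received retinoic acid at 5 µM and were sampled from day 0 to day 6. In 7 knockdown courses the cells carried a short hairpin RNA (shRNA) against Esrrb, the transcript labelled Mm343880, Nanog, Oct4, Sox2, Tbx3 or Tcl1, and in the empty vector course they carried the H1P vector without a hairpin. These transduced cells stayed in LIF at 1000 units/ml, were sorted for GFP each day, and were followed from day 0, set 48 hours after transduction, to day 7 (day 6 for Mm343880). No course lost LIF without retinoic acid or received retinoic acid in LIF, so these changes cannot be told apart. The retinoic acid and empty vector courses differ in both. In place of replicates, the tests below use how far single samples lie from a smooth curve fitted to each course, which may be technical scatter in part. They do not measure the spread between cultures.

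Retinoic acid enters the nucleus, where its receptors sit on DNA as pairs with a partner receptor and turn on genes near short repeated half-sites. Its targets include genes that carry retinoic acid (the Crabp genes), genes that destroy it (the Cyp26 genes) and the Hox genes that give cells a position along the body axis. In embryonic stem cells retinoic acid ends self-renewal and, depending on the culture, opens neural, endodermal or other programmes. Because Cyp26 enzymes are both targets and scavengers of retinoic acid, the response contains a negative feedback.

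Arrays of the retinoic acid course had medians of 265 to 383 on A and 97.2 to 128.5 on B. The median of all 11967 genes moved by 0.12, 0.24 and 0.18 on the log2 scale on days 1, 2 and 3 relative to day 0, and the median of the transient genes by 1.54, 2.03 and 1.57. Over the same course the summed signal of 5 pluripotency markers (Pou5f1, Nanog, Sox2, Zfp42 and Esrrb) fell to 643 on day 6, against 40227 on day 0, while it stayed between 36885 and 46660 in the empty vector course. The summed signal of 8 extraembryonic endoderm markers ran from 2209 to 24813 in the retinoic acid course and from 1828 to 3376 in the empty vector course, and that of 7 fibroblast markers from 1305 to 25282 and from 977 to 1681. Among the defining markers of extraembryonic endoderm, Afp stayed below the table median on all 7 days and Ttr on 6 of them, although no marker was at 0. In such bulk samples, fewer cells of a type and less RNA per cell cannot be told apart, and the part of these shifts in the results below was not tested.

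Promoters from RefSeq (build GRCm38.p6, 250 bases before to 50 after each gene's start) were matched to 77 of the 100 genes, with 97 promoters in all. They were searched on both strands for the receptor half-sites AGGTCA or GGGTCA or AGTTCA or GGTTCA. They were also searched for DR5, DR2 and DR1, any 2 of these on the same strand with 5, 2 or 1 bases between them. A DR5 was found in 32 of 32851 promoters (0.0974%) and, among the transient genes, in 1 promoter, that of Cyp26a1. A DR2 was found in 88 of all promoters (0.268%) and in 0 of the 97. A DR1 was found in 73 (0.222%) and in 1 of the 97, that of Cxcl10. The sequences shown are those of Cyp26a1, the gene with the highest signal of the set, at chr19:37697558-37697857 on the plus strand with its DR5 in capitals, and of Stra8, the gene with the highest score, at chr6:34920698-34920997 on the plus strand with its AGGTCA half-sites in capitals. The Cyp26a1 element reads on the minus strand and spans bases -32 to -16 from the start, and the 2 Stra8 half-sites lie at -194 to -189 and at -38 to -33.
Cyp26a1: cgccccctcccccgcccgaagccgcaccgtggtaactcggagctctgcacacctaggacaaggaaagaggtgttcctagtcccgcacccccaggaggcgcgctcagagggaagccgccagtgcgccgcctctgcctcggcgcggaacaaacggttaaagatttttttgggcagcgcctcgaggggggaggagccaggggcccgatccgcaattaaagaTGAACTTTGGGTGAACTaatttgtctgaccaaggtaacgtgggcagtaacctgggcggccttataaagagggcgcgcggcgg
Stra8: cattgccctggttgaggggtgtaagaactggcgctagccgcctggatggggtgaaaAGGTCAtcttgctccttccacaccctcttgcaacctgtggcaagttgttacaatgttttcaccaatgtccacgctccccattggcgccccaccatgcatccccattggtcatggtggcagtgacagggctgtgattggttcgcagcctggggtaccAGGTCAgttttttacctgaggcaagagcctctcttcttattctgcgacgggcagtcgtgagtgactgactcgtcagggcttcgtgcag
A single AGGTCA was present in 14.4% of the 97 promoters and in 16.3% of all, AGTTCA in 14.4% and 14%, and GGTTCA in 10.3% and 10.4%. GGGTCA was present in 30 of the 97 promoters (30.9%) and in 13.7% of all promoters, among them those of Car4, Prtg, Actc1, Cubn and Klb. A match of letters describes the window and says nothing about which factor, if any, sits there.

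The genes did not peak together. The highest signal of the course fell on day 1 for 25 genes, on day 2 for 53, on day 3 for 20 and on day 4 for 2 (Cxcl10 and 5730409E04Rik), as the heat map of the 100 genes by day shows. Scores ran from 1.03 to 4.46 with a median of 1.26, and 13 genes had a score of at least 2. In 84 genes each of days 1, 2 and 3 was above each of days 0, 5 and 6. The median fold of days 1 to 3 over day 0 was 3.15, computed with the added percentile, so that for genes of low signal it is smaller than the fold of the signals themselves. At day 0 the signal of 67 genes was below the table median and that of 21 below the 20th percentile, so for many of them the starting level was close to the low end of the array. The median log2 difference of the 100 genes from the empty vector was -0.37 on day 0, against -0.12 over all genes. On days 1, 2 and 3 it was 1.45, 1.81 and 1.24. A low value in the single day 0 sample helps a gene to pass the rule, by construction.

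**Figure D1:**
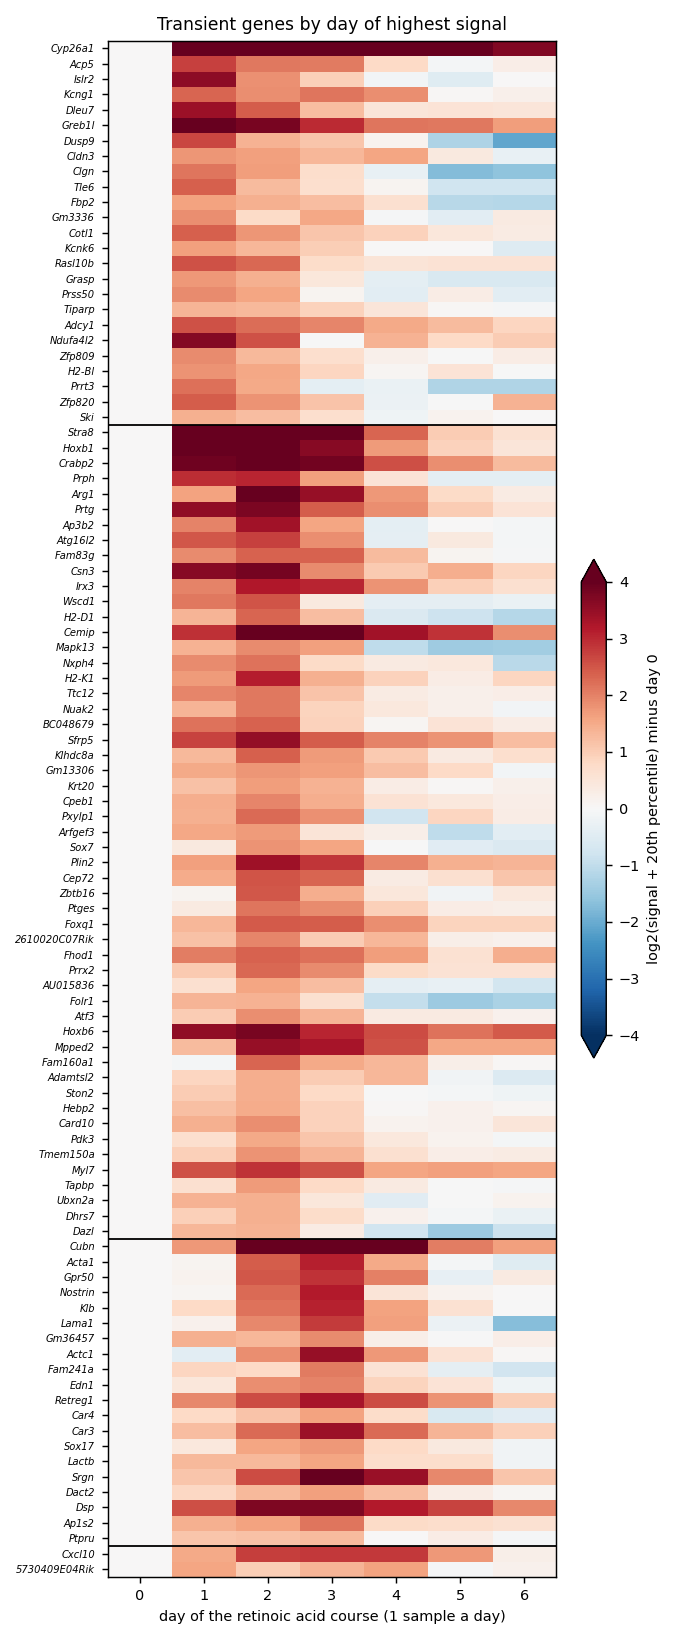
Heat map of the 100 transient genes (rows) over days 0 to 6 of the retinoic acid course (columns, 1 sample a day). Colour is log2(signal + 20th percentile) minus day 0, and lines separate the 25, 53, 20 and 2 genes with their highest signal on day 1, 2, 3 and 4.

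On day 4, which the choice of genes did not use, 91 of the 100 genes were below their mean of days 1 to 3 and 70 were still above the higher of their outer levels. The median gene kept 27.1% of its score on day 4. Both reference levels were used in the choice, so a day 4 level between them is partly built in and these counts are a description. Genes with their highest signal on day 1 kept a median of 5.45%, those of day 2 kept 22.3% and those of day 3 kept 78.3%. The day of the highest signal was read from the same samples, so a later peak goes with a larger share in part by construction. By days 5 and 6, 17 genes were still at least 1 log2 unit above day 0 and 7 were at least 1 below it. Cyp26a1, Hoxb6 and Dsp were among those that stayed higher, and Dusp9, Folr1 and Clgn among those that ended lower. There was no replicate sample on any of these days.

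The 4 genes of highest score are all known from the retinoic acid response. Stra8, which retinoic acid switches on in germ cells before meiosis, had signals of 191, 12447, 12758, 5857, 1203, 453 and 324 on days 0 to 6. Hoxb1, which sets the identity of a segment of the hindbrain, had 84.9, 3076, 4520, 1788, 416, 215 and 142. Crabp2, which delivers retinoic acid to its receptors, had 145, 3044, 11099, 2945, 1184, 691 and 434. All 3 were highest on day 2, and on days 5 and 6 Stra8 and Hoxb1 were within 1 log2 unit of day 0 while Crabp2 was above that. Cyp26a1, the enzyme that oxidises and inactivates retinoic acid, had 58.5, 15848, 15507, 12239, 6850, 2775 and 1513. It was highest on day 1, fell more slowly than the other 3 and was far above day 0 on day 6, as the plot of signal by day in both courses shows. In the 8 empty vector samples the lowest, median and highest signals were 304, 468 and 604 for Stra8, and for Crabp2 they lay between 34.3 and 173. Stra8 on day 0 of the retinoic acid course was thus below every empty vector sample, whereas its values on days 1 to 4 were above all of them.

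**Figure D2:**
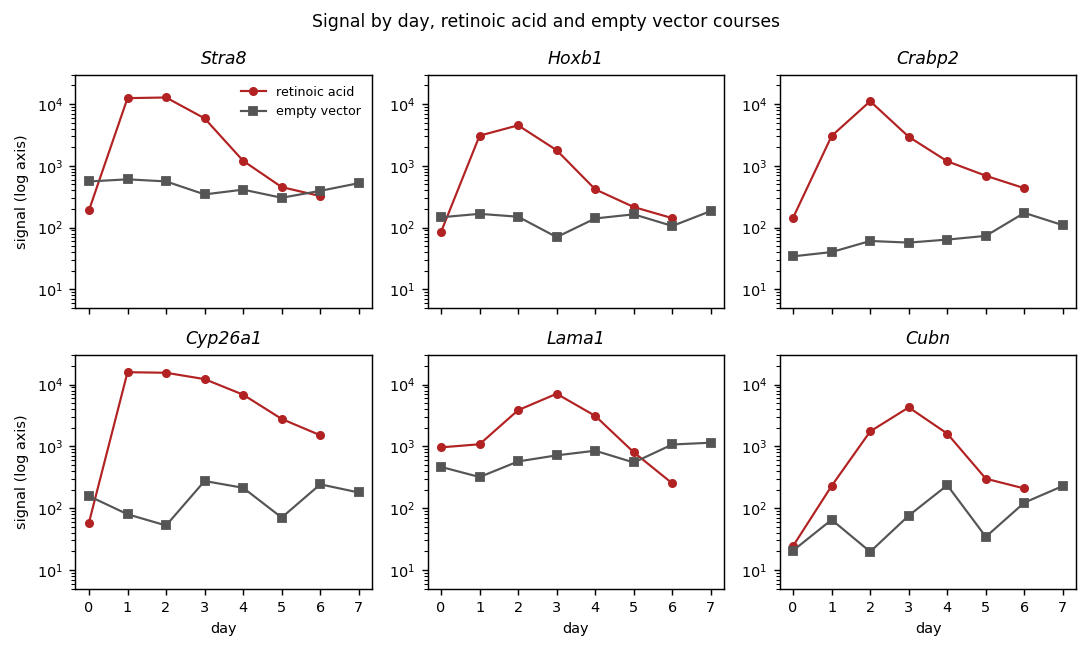
Signal on a log axis against day for Stra8, Hoxb1, Crabp2, Cyp26a1, Lama1 and Cubn, with 1 sample per point, in the retinoic acid course (circles) and the empty vector course (squares). On days 1 to 3 the retinoic acid samples of Stra8, Hoxb1, Crabp2 and Cyp26a1 lie above all empty vector samples, while Lama1 and Cubn are highest on day 3.

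Most other retinoic acid genes did not return. Of 21 genes of a list on retinoid metabolism and response that were above the minimum, 17 were at least 1 log2 unit above day 0 on days 1 to 3 and 15 still were on days 5 and 6, with a median score of -0.16. Over all 11967 genes, 1688 were up by that size on days 1 to 3 and 2391 on days 5 and 6. The receptor gene Rarb climbed to 5324 on day 3 and was at 5826 on day 6, and Dhrs3, which turns retinal back into retinol, was at 1368 on day 1 and 2545 on day 6. Cyp26b1, the sister enzyme of Cyp26a1, was at 5091 on day 3 and 3920 on day 6, with a score of -0.27. Only Stra8, Crabp2 and Cyp26a1 of this list were among the 100 genes, and Crabp1, with a score of 0.87, came closest of those left out.

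The same held for the Hox genes. Of 23 Hox genes and cofactors above the minimum, 21 were up by at least 1 log2 unit on days 1 to 3 and 21 on days 5 and 6, and the median score was -0.37. Hoxb1 and Hoxb6 were the members of the transient set, with scores of 3.64 and 1.13. Hoxb6 had 53.7 on day 0, 1543 on day 2 and 583 on day 6, so its return was partial. Its neighbours in the list had lower scores: Hoxb2 had 5405 on day 2 and 2226 on day 6 (score 0.95), and Hoxb4 had 1520 on day 1 and 804 on day 6 (score 0.67). Hoxa5 and Hoxc8 reached 6928 and 5815 on day 6 and had negative scores.

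Of the members known from extraembryonic endoderm, 3 were highest on day 3 and Sox7 on day 2. Cubn, an endocytic receptor of the yolk sac and kidney, had signals of 24.4, 229, 1744, 4272, 1606, 299.5 and 208 on days 0 to 6. Lama1, the laminin chain of early basement membranes, had 962.5, 1081, 3852, 7096, 3109, 801 and 252. Both were highest on day 3, and Lama1 ended below its starting level. The transcription factor genes Sox7 and Sox17 reached 772 on day 2 and 579 on day 3, and they were at 97.2 and 113 on day 6. These 4 were the members among 18 extraembryonic endoderm markers above the minimum, of which 13 were up by at least 1 log2 unit on days 1 to 3 and 9 on days 5 and 6. Gata6 and Gata4, regulators of the same lineage, were at 7070 and 1342 on day 6, their highest values, so the markers of this cell type did not move as a block.

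Among members known from contractile, adhesive and epithelial cells, named here for their roles and not from a list, the highest signals fell on days 1, 2 and 3. Acta1, the alpha-actin of skeletal muscle, had 396, 436.5, 2409, 3878, 1242, 371 and 265 on days 0 to 6, and Actc1, the cardiac alpha-actin, had 202.5, 135, 893.5, 2904, 828, 337 and 211. The 2 actins are close copies of each other in their coding parts, and probe sets may not separate them fully. Myl7, a myosin light chain of the atrium, was at 86.8 on day 0, 809 on day 1 and 1038 on day 2, and stayed at 384 on day 6. Dsp, a plaque protein of desmosomes, was at 188 on day 0, 1452 on day 1, 3309 on day 3 and 880 on day 6. Cldn3, a tight junction protein, and Krt20, an epithelial keratin, had their highest signals of 347 on day 1 and 551.5 on day 2. That Cldn3 signal was below its empty vector average of days 1 to 3, which is given further below. Car4 and Car3, 2 carbonic anhydrases, were highest on day 3 with 714 and 3697, against 193.5 and 286 on day 0.

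Several members were highest on day 1 or 2 and had returned to their day 0 level or below it by day 6. Islr2, a leucine-rich repeat protein of neuronal membranes, had 45.5, 776, 218, 108, 41.2, 26.2 and 46.1 on days 0 to 6, with its highest signal on day 1. Prph, an intermediate filament of peripheral neurons, had 684.5 and 730 on days 1 and 2, against 32.4 on day 0 and 10.2 on day 6. Ap3b2, a subunit of the neuronal AP-3 adaptor, was at 1903 on day 2 and at 83.9 on day 4, below its day 0 value of 129. Clgn, a chaperone of the testis, had 1218 on day 1 and 31.5 on day 6, and Dazl, an RNA-binding protein of germ cells, had 517 on day 2 and 59 on day 6. Dusp9, a phosphatase that switches off ERK, had 1172.5, 7737, 3195, 2575, 1300, 460 and 231. It was below its starting level on days 5 and 6. These genes were picked for their known roles: a list of neural differentiation held 14 genes above the minimum and a list of FGF-ERK feedback 16, with median scores of -0.61 and -0.21, and neither held a member.

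Other members came from metabolism, transcription and antigen presentation. Arg1, the arginase of the urea cycle, was at 60.0 on day 0, 2085 on day 2 and 91.2 on day 6, and Plin2, which coats lipid droplets, at 690, 7874 and 1878.5 on the same days. Among homeobox and other transcription factor genes, Irx3 reached 2152.5 on day 2, Foxq1 1027, Prrx2 991, Zbtb16 811.5 and Atf3, a stress-induced factor, 535. The class I histocompatibility genes H2-D1 and H2-K1 reached 2779 and 5163 on day 2, against 498 and 533 on day 0, and Tapbp, which loads peptides onto class I molecules, 2081 against 592. The H2-D1 and H2-K1 probe sets can bind several class I genes, so their signals cannot be assigned to 1 gene with certainty, and 10 of the 100 probe sets are of such a shared type. Cxcl10, a chemokine induced by interferon, was among the 19 members that kept at least 80% of their score on day 4, with a signal of 444 on that day and 19.9 on day 6. Srgn, a proteoglycan of secretory granules, was another, at 2625 on day 4 and 465 on day 6.

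The border of the set was shallow. The last 3 members, Dhrs7, Ski and Dazl, had scores of 1.03, and the first 3 genes outside, Grifin, Vmn1r44 and Slc1a5, had 1.02. Other versions of the rule kept 82 to 93 of the 100 genes under another pseudocount, normalization or probe set. Leaving out 1 day of the course kept 71 without day 1, 82 without day 2, 72 without day 3, 86 without day 5 and 76 without day 6, and 33 genes were kept under all 10 versions. For 50 genes of the set the arrays held 87 other probe sets, of which 52 were above the table median, and 41 of these 52 had a score above 0 and 24 a score as high as the last member's. For Prtg, an immunoglobulin-type receptor with a score of 2.46, the other probe sets had scores of 3.33 and 2.25. For Greb1l, whose score was 1.76, the other probe set had -0.09. For Sox7 (1.25) and Atg16l2 (2.19) the other probe set, above the table median, had -0.66 and 0.36. For Prph (2.56) the others, all below the median, had 0.83, 0.07 and -0.06.

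Whether the same genes rise and fall when self-renewal regulators are knocked down can be asked of courses that had no part in the choice. In retinoic acid a hump of the median follows from the choice of the genes, so that curve is no result beside the others. In the other courses the transient genes shared no visible hump, as the plot of the median change by day shows. On days 1, 2 and 3 the median of the 100 genes was -0.16, -0.02 and -0.07 from day 0 in the empty vector course on the log2 scale, and between -0.05 and 0.47 in the knockdown courses. The score of the rule reached that of the last member for 1 gene in the Esrrb course (Car3; background of all genes 0.125%), 1 in Mm343880 (Ttc12; 0.0501%) and 1 in Tbx3 (Wscd1; 0.0919%). It did so for 0 members in the courses of Nanog (0.1%), Oct4 (0.0167%), Sox2 (0.0167%), Tcl1 (0.175%) and empty vector (0.0919%). These are counts on single samples, with no test.

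**Figure D3:**
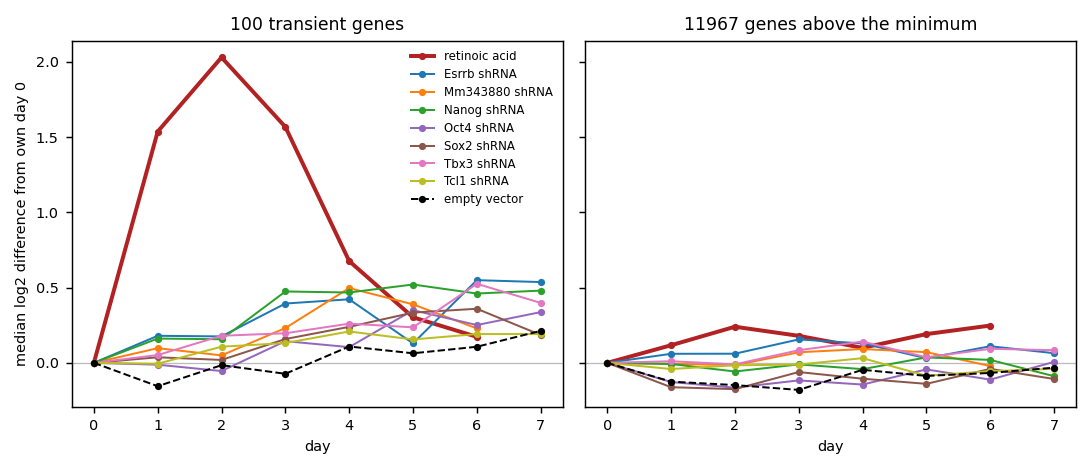
Median over the 100 transient genes (left) and over all 11967 genes (right) of the log2 difference from day 0 of the same course, against day, for the retinoic acid, 7 knockdown and empty vector courses (1 sample per point). The retinoic acid median of the transient genes reaches 2.03 on day 2, a hump that the choice of the genes builds in. The knockdown medians lie between 0.19 and 0.54 on their last days, and the empty vector median is 0.21 on day 7.

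A linear form of the score was tested in each of these 8 courses with limma: the fitted mean of days 1 to 3 minus the average of day 0 and days 5 and 6, with p-values adjusted over all 11967 genes and a threshold of 0.05. In the Esrrb course 3 of the 100 genes were higher on days 1 to 3 (all genes 0.769%) and 1 lower (0.66%), in Nanog 6 higher (2.76%) and 6 lower (5.87%), in Sox2 6 higher (1.56%) and 5 lower (5.01%), and in Tbx3 0 higher (0.0919%) and 3 lower (0.259%). In the Mm343880 (0.0669% and 0.209%), Oct4 (0% and 0.0501%), Tcl1 (0.00836% and 0%) and empty vector (0% and 0%) courses 0 of the 100 genes passed in either direction, and 15, 11, 8 and 12 of them had an unadjusted p under 0.05. Actc1 was the gene that passed upward in 3 courses, by 1.53 ± 0.29 (SE) in Esrrb (adjusted p = 0.00373), 1.03 ± 0.29 in Nanog (0.0233) and 1.05 ± 0.29 in Sox2 (0.0271) on the log2 scale. The contrast averages the outer levels, so a gene that rises from a low day 0 and stays high can pass too. By the score of the rule, which takes the higher outer level, Actc1 had 0.30 in Esrrb, 0.98 in Nanog and 0.04 in Sox2. Tiparp, an ADP-ribosyltransferase, passed downward in 3 courses, by -0.62, -0.76 and -0.86 in Nanog, Sox2 and Tbx3. These calls rested on few samples: of the 30 gene and course pairs that passed, none passed when each sample of its course was left out in turn. Without its day 0 sample, the counts for Nanog, Sox2 and Tbx3 fell to 0 in both directions. The contrast uses day 0, and without that sample the curve is extrapolated to it. A loss of calls is then likely and says little about the other samples. In Esrrb, 0 were higher without the day 2 sample and 0 lower without day 0, and without their day 6 samples Mm343880 had 1 higher and 2 lower and Tbx3 had 1 higher.

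**Figure D4:**
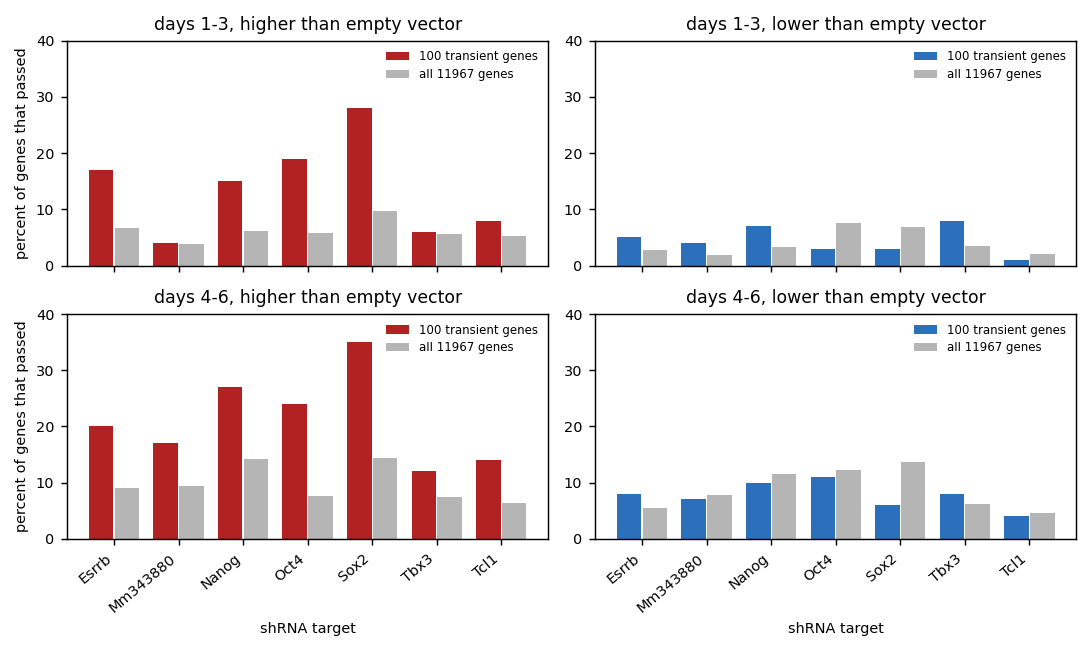
Percent of genes that passed the limma test (adjusted p under 0.05) against shRNA target, for the 100 transient genes (coloured bars) and for all 11967 genes (grey bars), higher (left) or lower (right) than in the empty vector course on days 1 to 3 (top) and days 4 to 6 (bottom). In the Sox2 course 28 and 35 of the 100 genes were higher on the early and late days, against 9.65% and 14.3% of all genes.

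In the knockdown courses the genes were instead compared with the empty vector at their levels, on days 1 to 3 and on days 4 to 6, with the same limma fit. The targeted genes checked the labels: over the days, the median signal of the target, as a share of the empty vector on the same day, was 8.77% for Esrrb, 10.3% for Tbx3, 12.5% for Pou5f1 (which encodes Oct4), 13.9% for Nanog, 19.6% for Sox2 and 29.1% for Tcl1, and it was at most 39.8% in any sample (Tbx3). The transcript labelled Mm343880 was not matched to a gene name, so its level was not checked. All 7 comparisons share the empty vector samples. On days 1 to 3, 28 of the 100 genes were higher in Sox2 knockdown cells than in empty vector cells (all genes 9.65%) and 3 lower (6.86%). In Oct4 knockdown 19 were higher (5.75%) and 3 lower (7.56%), in Esrrb 17 higher (6.76%) and 5 lower (2.78%), and in Nanog 15 higher (6.18%) and 7 lower (3.24%). In Tcl1 knockdown 8 were higher (5.18%) and 1 lower (2.12%), in Tbx3 6 higher (5.67%) and 8 lower (3.54%), and in Mm343880 4 higher (3.78%) and 4 lower (1.86%). The shares of higher genes in Sox2, Oct4, Esrrb and Nanog knockdown stood at 2 times the share of all genes or more, and those in Mm343880 and Tbx3 were near it. The median difference over the 100 genes was 0.28 in Sox2 and 0.20 in Nanog, against 0.01 and 0.05 over all genes, and -0.10 in Tbx3, against -0.03.

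Single empty vector samples weighed on the smaller of these counts. Without empty vector day 2 the genes higher on days 1 to 3 fell to 10 in Esrrb, 9 in Nanog and 4 in Tcl1, and the lower ones to 1 in Esrrb and 3 in Nanog. The Tbx3 counts fell to 3 higher and 3 lower without the Tbx3 day 2 sample, and in Mm343880 the count of higher genes was 7 without empty vector day 0 and that of lower genes 1 without empty vector day 1. In Sox2 the lower genes numbered 6 without empty vector day 1, and in Tcl1 they numbered 2 without the Tcl1 day 0 sample. The count of higher genes in Sox2 stayed between 23 and 30, and that in Oct4 between 18 and 21, whichever sample was left out.

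On days 4 to 6 more of the genes were higher in every knockdown course than on days 1 to 3, and the share of all genes that were higher rose in every course too. There were 35 higher in Sox2 (14.3% of all genes) and 6 lower (13.6%), 27 higher in Nanog (14.2%) and 10 lower (11.5%), 24 higher in Oct4 (7.7%) and 11 lower (12.2%), and 20 higher in Esrrb (8.97%) and 8 lower (5.56%). In Mm343880 17 were higher (9.34%) and 7 lower (7.82%), in Tcl1 14 higher (6.34%) and 4 lower (4.54%), and in Tbx3 12 higher (7.5%) and 8 lower (6.23%). The shares of lower genes were close to those of all genes except in Sox2, where fewer of the 100 were lower. The minimum signal was set on retinoic acid days, and 88 of the 100 genes were above the table median in at least 3 of the 63 samples fitted. For genes near the low end a fall is harder to call than a rise, and its part in these counts was not tested. Without its own day 6 sample, the last of that course, Mm343880 had 10 higher and 3 lower genes, with the curve extrapolated to that day. In Tbx3, 7 were higher without empty vector day 5 and 3 lower without empty vector day 6, and in Esrrb 5 were lower without empty vector day 4. Of the 700 gene and course pairs, 149 were higher and 54 lower.

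The heat map of late differences shows the 34 genes that passed in at least 3 courses, which 20.5% of all genes did. Of the 100 genes, 6 were higher on days 4 to 6 in all 7 knockdowns (all genes 1.18%): Acta1, Car4, Prtg, Greb1l, Tapbp and AU015836. Since the 7 comparisons share the empty vector samples, agreement among them is not independent.

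**Figure D5:**
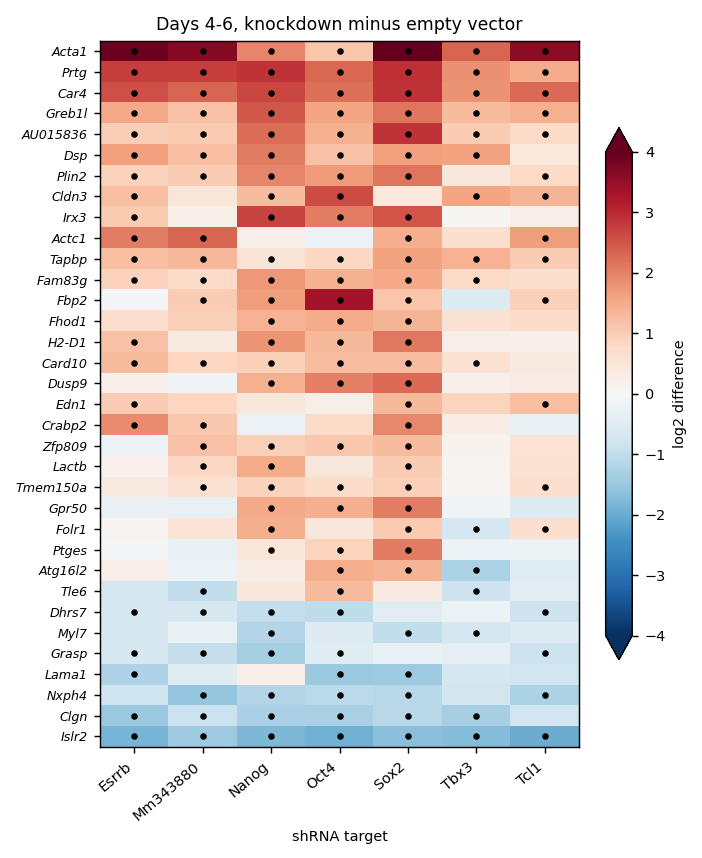
Heat map of the log2 difference on days 4 to 6, knockdown minus empty vector, for the 34 transient genes (rows) that passed the limma test in at least 3 of the 7 knockdown courses (columns). Dots mark pairs with an adjusted p under 0.05, and rows run from Acta1, with the highest mean difference, to Islr2, which is lower in all 7 courses.

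Acta1 rose furthest. On days 4 to 6 its signal averaged 9395 ± 1550 (SD over 3 days) in Sox2 knockdown cells, 6700 ± 2740 in Esrrb, 5976 ± 3440 in Mm343880, 4975 ± 1740 in Tcl1, 2340 ± 1270 in Tbx3, 1717 ± 905 in Nanog and 882.5 ± 64.6 in Oct4, against 370.5 ± 103 in the empty vector. None of the knockdown values of days 4 to 6 was as low as the highest empty vector value of 473. The log2 differences were 4.42 ± 0.34 (SE, adjusted p = 3.3e-13) in Sox2, 3.92 in Esrrb, 3.65 in Mm343880, 3.57 in Tcl1, 2.32 in Tbx3, 1.96 in Nanog and 1.11 in Oct4 (adjusted p = 0.0166). The Oct4 call was lost without empty vector day 4 (adjusted p = 0.0832), empty vector day 5 (0.0533) or Oct4 day 5 (0.0715). On days 1 to 3 Acta1 was also higher in all 7 courses, by 1.49 in Mm343880 to 4.82 in Sox2, and the early calls in Mm343880 and Tbx3 were lost without 1 sample (adjusted p = 0.0545 without Mm343880 day 3, 0.062 without empty vector day 2 and 0.121 without Tbx3 day 2). Acta1 reached 10649 on day 3 in the Sox2 course and was still at 8468 on day 7, whereas in retinoic acid it was at 3878 on day 3 and 265 on day 6. The summed signal of the 7 fibroblast markers reached 6020 in Tbx3, 4307 in Esrrb, 3282 in Sox2, 2164 in Mm343880, 1736 in Nanog, 1560 in Tcl1 and 1249 in Oct4, against 1681 in the empty vector. Of a wider list of 12 fibroblast genes, 8 were higher on days 4 to 6 in Esrrb and in Sox2, 6 in Mm343880 and in Tbx3, 3 in Oct4 and in Tcl1, and 2 in Nanog, and the part of this shift in the Acta1 differences was not tested.

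Car4, a membrane-bound carbonic anhydrase, showed the same contrast between a lasting and a passing rise. Its signal on days 4 to 6 averaged 3848 ± 1030 in Sox2 knockdown cells, 3237 ± 539 in Nanog, 2955 ± 481 in Esrrb, 2629 ± 1300 in Mm343880, 2471 ± 817 in Tcl1, 2276 ± 517 in Oct4 and 1990 ± 1110 in Tbx3, against 474 ± 150 in the empty vector. The highest empty vector value was 647, and every knockdown value of days 4 to 6 was above it. The log2 differences ran from 1.80 ± 0.29 in Tbx3 (adjusted p = 2.79e-05) to 2.88 ± 0.29 in Sox2 (3.33e-10). On days 1 to 3 Car4 was higher in 6 of the 7 courses, and in Mm343880 the difference of 0.85 did not pass (adjusted p = 0.0851). The early call in Tbx3 was lost without Tbx3 day 2 (adjusted p = 0.0563). Its highest signal in the retinoic acid course, 714 on day 3, was below those of all 7 knockdown courses.

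Prtg, protogenin, a membrane receptor of early neural and mesodermal tissue, was among the members with a large early rise in retinoic acid, with 276, 3477, 4008, 1558, 1047.5, 575 and 415 on days 0 to 6. In the knockdown courses it climbed late, to an average on days 4 to 6 of 1925 ± 316 in Sox2, 1776 ± 376 in Nanog, 1752 ± 1000 in Mm343880, 1628 ± 352 in Esrrb, 1168 ± 192 in Oct4, 975 ± 494 in Tbx3 and 655 ± 139 in Tcl1, against 238 ± 135 in the empty vector. The log2 differences ran from 1.47 ± 0.28 (SE, adjusted p = 0.000382) in Tcl1 to 2.92 in Sox2 (1.28e-10). The empty vector day 6 value of 82.9 stood apart from the other 7 empty vector values of 277 to 362, and the calls held without it. Greb1l moved in the same direction, with 369 ± 12.4 in Oct4 and 705 ± 109 in Nanog, against 105 ± 16.4 in the empty vector, and log2 differences of 1.16 in Mm343880 to 2.49 ± 0.26 in Nanog (adjusted p = 1.77e-09). Its Mm343880 call was lost without Mm343880 day 6 (adjusted p = 0.739).

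Tapbp, tapasin, averaged 2522 ± 288 in Sox2 knockdown cells on days 4 to 6 and between 1182 and 2272 in the other 6 knockdowns, against 795 ± 81.3 in the empty vector. The log2 differences ran from 0.51 ± 0.17 in Nanog (adjusted p = 0.0248) to 1.60 in Sox2 (1.19e-09), and the Nanog call was lost without any of 4 single samples, with an adjusted p of up to 0.117. H2-D1 was higher on days 4 to 6 in 4 courses, with an average of 2639 ± 80.3 in Sox2, 3171 ± 3260 in Nanog, 1489 ± 233 in Oct4 and 1294 ± 199 in Esrrb, against 546 ± 92.2 in the empty vector. In Nanog the 3 values were 887, 1717 and 6909, hence the large SD. The early call of H2-D1 in Esrrb was lost without any of 4 single samples, with an adjusted p of up to 0.121. H2-K1 passed in Sox2 knockdown cells, and that call was lost without Sox2 day 4 (adjusted p = 0.102). The unnamed gene AU015836 was highest in Sox2 knockdown cells, at 2357 ± 277 against 299 ± 56.3 in the empty vector, a log2 difference of 2.88 ± 0.19 (adjusted p = 5.15e-15). Its calls were lost in Mm343880 without Mm343880 day 6 (adjusted p = 0.122) and in Tcl1 without empty vector day 5 (0.0515).

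Irx3 and Plin2 passed in most courses. Irx3 was higher on days 1 to 3 in all 7 (all genes 0.201%), by 0.90 ± 0.22 in Mm343880 to 1.99 in Sox2, and on days 4 to 6 in 4: Nanog (2.69 ± 0.22, adjusted p = 2.39e-12), Sox2 (2.52), Oct4 (2.05) and Esrrb (1.05). Its early calls were lost in Mm343880 without empty vector day 3 (adjusted p = 0.146) or Mm343880 day 2 (0.15), and in Tbx3 without Tbx3 day 2 (0.0569). In the Nanog course Irx3 had 235, 201, 264, 471, 802, 1727, 4041 and 3545 on days 0 to 7, against at most 277 in the empty vector. It was above every empty vector value from day 3. Plin2 averaged 8169 ± 1620 in Sox2, 7546 ± 1920 in Nanog and 6161 ± 1220 in Oct4 knockdown cells on days 4 to 6, against 1837 ± 373 in the empty vector, log2 differences of 2.13, 1.96 and 1.70 ± 0.19. It was also higher in Esrrb, Mm343880 and Tcl1, and the Tcl1 call was lost without empty vector day 5 (adjusted p = 0.0587). In Tbx3 knockdown cells Plin2 averaged 2582 ± 678, and its difference of 0.46 did not pass (adjusted p = 0.105).

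Of the retinoic acid targets, Cyp26a1 and Hoxb1 passed in no knockdown comparison. Cyp26a1 differences from the empty vector lay between -0.19 and 1.02 on days 1 to 3 and between -0.24 and 0.86 on days 4 to 6, and its highest signal in any knockdown sample was 499, against 15848 in retinoic acid. Hoxb1 differences lay between -0.35 and 0.21. They belong to 30 of the 100 genes that passed in no comparison, among them Hoxb6, Sox17, Arg1, Klb and Ski. Crabp2 and Stra8 did pass. Crabp2 averaged 454 ± 146 in Sox2 knockdown cells on days 1 to 3 and 559 ± 12.4 on days 4 to 6, against 52.7 ± 11.0 and 104 ± 60.5 in the empty vector, differences of 2.12 ± 0.33 (adjusted p = 4.25e-06) and 1.91 (1.45e-05). In Esrrb knockdown cells it averaged 585 ± 167 on days 4 to 6, a difference of 1.90 (3.66e-05), and its highest value there was 943.5 on day 7. Its early call in Esrrb was lost without Esrrb day 2 (adjusted p = 0.155), and its late call in Mm343880 (1.09) without any of 4 single samples (up to 0.224). Stra8 passed downward in Esrrb knockdown cells on days 4 to 6, at 84.6 ± 39.5 against 370 ± 57.7 in the empty vector, a difference of -1.43 ± 0.33 (adjusted p = 0.00181). On days 1 to 3 it was lower in Tbx3 (-1.10) and Esrrb (-0.99), calls lost without any of 4 samples in Tbx3 (adjusted p up to 0.228) and without any of 13 in Esrrb (up to 0.266). Over the list of 21 retinoid genes, between 0 and 4 were higher on days 1 to 3 in the 7 courses, with 4 in Sox2 (all genes 9.65%), and between 0 and 4 lower, with 4 in Oct4 (7.56%) and in Nanog (3.24%). Later, between 0 and 5 were higher on days 4 to 6 and between 1 and 5 lower, with 5 and 5 in Sox2 (14.3% and 13.6%) and 0 and 2 in Tcl1 (6.34% and 4.54%). Of the 23 Hox genes and cofactors, at most 2 were higher on days 1 to 3 (Sox2; 9.65% of all genes) and at most 4 on days 4 to 6 (Sox2; 14.3%), with 0 or 1 in each of the other 6 courses. A single Hox gene or cofactor was lower, in Oct4 on days 1 to 3.

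The extraembryonic endoderm members moved in both directions. Lama1 was lower in Sox2 knockdown cells on days 1 to 3, with 72.0, 43.2 and 107 against 319, 570 and 715 in the empty vector, a log2 difference of -2.21 ± 0.30 (adjusted p = 2.9e-07). The ranges of the 2 courses on these days did not overlap. On days 4 to 6 it was lower in Oct4 (-1.48), Sox2 (-1.46) and Esrrb (-1.24). Cubn was higher on days 4 to 6 in Nanog knockdown cells, at 439 ± 216 against 131 ± 100 in the empty vector, and that call was lost without empty vector day 5 (adjusted p = 0.126). In Mm343880 it was higher by 1.12 (adjusted p = 0.031), which was lost without any of 4 samples (up to 0.78) and turned to -0.40 with another probe set (adjusted p = 0.33). Sox7 passed on days 4 to 6 in Nanog (0.70), a call lost without Nanog day 4 (adjusted p = 0.0753) or empty vector day 6 (0.129), and Sox17 passed in no comparison. The highest summed signal of the 8 extraembryonic endoderm markers was between 4307 (Tbx3) and 15364 (Nanog, on day 7) in the knockdown courses, against 3376 in the empty vector.

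Some members were higher in several knockdowns and lower, or did not pass, in others. Dusp9 averaged 10990 ± 530 in Sox2 and 7878 ± 1100 in Oct4 knockdown cells on days 1 to 3, against 2223 ± 154 in the empty vector, differences of 2.33 ± 0.17 (adjusted p = 9.96e-14) and 1.82. In Tbx3 knockdown cells it was lower, at 1308 ± 118 (-0.73, adjusted p = 0.00309). Later, on days 4 to 6, Dusp9 was higher in Sox2 (2.28), Oct4 (2.02) and Nanog (1.43). Fbp2, a fructose bisphosphatase of muscle, was at 1456 ± 71.7 on days 4 to 6 in Oct4 knockdown cells, against 107 ± 77.3 in the empty vector, a difference of 3.33 ± 0.31 (adjusted p = 5.54e-11). On these days Fbp2 also passed in Nanog (1.68, adjusted p = 6.37e-05), Sox2, Mm343880 (1.01) and Tcl1 (0.94), and of these 4 calls that in Nanog held with each sample left out in turn. The Sox2 call was lost without empty vector day 5 (0.068) or Sox2 day 5 (0.0656), the Mm343880 call without any of 4 samples and the Tcl1 call without any of 5. Cldn3 was higher in Oct4 knockdown cells on days 1 to 3 (1786 ± 243 against 364 ± 109) and on days 4 to 6 (2860 ± 218 against 572 ± 392). Its late calls in Esrrb, Nanog, Tbx3 and Tcl1 were all lost without empty vector day 5 (adjusted p = 0.524, 0.369, 0.155 and 0.328). Folr1, a folate receptor, was higher in Nanog (8715, 9476 and 9259) and Sox2 (7321, 7898 and 5974) knockdown cells on days 1 to 3, against 4166.5, 3534 and 3059 in the empty vector, with no overlap. The summed signal of 6 trophectoderm markers reached 49358 in Nanog, 34285 in Oct4, 33143 in Sox2, 26738 in Esrrb, 11005 in Tbx3, 7513 in Tcl1 and 6667 in Mm343880, against at most 2094 in the empty vector. It reached 4436 in the retinoic acid course, where the key regulator Cdx2 was below the table median on all 7 days, and its part in these differences was not tested.

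Several less familiar members had large differences in 1 or a few courses. Atg16l2, a relative of an autophagy protein, had 42.3, 334.8, 402, 213, 28.3, 63 and 39.3 on days 0 to 6 of the retinoic acid course. In Oct4 knockdown cells it had 316, 352 and 457 on days 1 to 3, against 48.2, 46.2 and 104 in the empty vector, a log2 difference of 2.23 ± 0.43 (SE, adjusted p = 0.000188), and the 2 groups of values did not overlap. Its early calls in Nanog and Sox2 (1.66 in both) were lost without empty vector day 2 (adjusted p = 0.0837 and 0.054), and on days 4 to 6 those in Oct4 (1.46) and Sox2 (1.36) without empty vector day 5 (0.065 and 0.0743). Its lower call in Tbx3 on those days (-1.27) was lost without any of 6 samples (up to 0.308). Fhod1, a formin that acts on actin filaments, had 553, 494 and 450 in Oct4 knockdown cells on days 1 to 3, against 15.1, 102 and 143 in the empty vector, a difference of 2.39 ± 0.41 (adjusted p = 2.63e-05). Its early calls in Nanog and Sox2 were lost without empty vector day 1 (0.125 and 0.107).

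Dsp, the desmosome gene, was higher on days 4 to 6 in 6 courses, by 1.16 in Oct4 to 2.07 ± 0.25 in Nanog (adjusted p = 2.23e-08). In Nanog knockdown cells it had 844, 1020 and 2072 on these days, against 214, 222 and 274 in the empty vector. The Mm343880 call of Dsp was lost without Mm343880 day 5 (adjusted p = 0.0875). Fam83g was highest on day 2 of the retinoic acid course, at 420 against 31.2 on day 0, and on days 4 to 6 it was higher in 6 knockdown courses. In Nanog knockdown cells it averaged 1034 ± 459, against 273 ± 82.7 in the empty vector, a difference of 1.73 ± 0.24 (adjusted p = 5.76e-07). Its late calls in Mm343880 (0.76) and Tbx3 (0.79) were each lost without single samples, with adjusted p-values of up to 0.725 and 0.122. Edn1, the peptide endothelin-1, had 150, 238 and 246 in Sox2 knockdown cells on days 4 to 6, against 47.2, 79.2 and 11.8 in the empty vector, a difference of 1.30 ± 0.33 (adjusted p = 0.00244). All of these values were below the A table median of 283.3, and 47.2 and 11.8 were below its 20th percentile of 63.1.

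Other calls of this kind depended on single samples. Mapk13, a p38 kinase, was higher on days 1 to 3 in Tbx3 (1.54), Mm343880 (1.49), Esrrb and Sox2 knockdown cells, and each of these calls was lost without empty vector day 2 (adjusted p = 0.0556 in Tbx3, 0.0986 in Mm343880, 0.312 in Esrrb and 0.286 in Sox2). Cep72, a centrosomal protein, was higher on days 1 to 3 in Tcl1 knockdown cells, with 215, 240 and 233 against 23.6, 42.9 and 56.1 in the empty vector. The difference of 1.80 ± 0.56 (adjusted p = 0.0385) was lost without any of 6 samples (up to 0.157). Acp5, an acid phosphatase, was lower on days 4 to 6 in Tbx3 (-1.39) and Esrrb (-1.33), where the empty vector had 241, 57.2 and 582, and both calls were lost without single samples (up to 0.0793 and 0.1). Dleu7 was lower in Nanog knockdown cells on days 1 to 3 (-1.53), a call lost without Nanog day 2 (0.202) or empty vector day 2 (0.15).

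Other members were lower after knockdown, and some of them are given here. Islr2 was lower in all 7 courses on days 1 to 3 (all genes 0.0836%), by -1.85 ± 0.34 in Nanog (adjusted p = 0.000147) to -2.69 in Sox2 (7.3e-08), and on days 4 to 6 (0.493%), by -1.44 in Mm343880 (0.00233) to -1.99 in Tcl1 (7.07e-05). Its empty vector signals were 376, 286, 451.5, 250, 247, 209, 222 and 269.5 on days 0 to 7, while on day 0 of the retinoic acid course it was at 45.5. On days 4 to 6 the knockdown averages lay between 38.3 and 70.9, against 226 ± 19.0 in the empty vector, with no overlap. The Mm343880 call of days 4 to 6 was lost without Mm343880 day 6 (adjusted p = 0.106). Clgn was lower on days 4 to 6 in 6 courses, at 25.7 ± 14.7 in Esrrb and 38.1 ± 10.5 in Nanog, against 188 ± 13.1 in the empty vector, differences of -1.48 and -1.29. Its Mm343880 call (-0.85) was lost without any of 4 samples (adjusted p up to 0.698). Ndufa4l2 was lower on days 4 to 6 in Nanog knockdown cells (115 ± 42.5 against 1476 ± 303, -3.43 ± 0.88, adjusted p = 0.00322) and in Oct4 (-2.84), and the Oct4 call was lost without empty vector day 4 (0.0678) or Oct4 day 5 (0.216). Nxph4, a neurexophilin, was lower on days 4 to 6 in 5 courses, with differences of -0.73 to -1.55 over all 7. Its calls were lost in Mm343880 without Mm343880 day 6 (adjusted p = 0.771), in Oct4 without empty vector day 4 (0.0649) and in Tcl1 without Tcl1 day 5 (0.0527).

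The calls can also be read by the day of the highest signal in retinoic acid, as shares of gene and course pairs. The 25 genes highest on day 1 had, on days 1 to 3, 10 higher (5.71%) and 19 lower calls (10.9%), against 6.14% and 4% over all genes. The 53 genes highest on day 2 had 64 (17.3%) and 11 (2.96%), and the 20 highest on day 3 had 23 (16.4%) and 1 (0.714%). On days 4 to 6 the calls were 26 higher (14.9%) and 27 lower (15.4%) for day 1, 84 (22.6%) and 24 (6.47%) for day 2, and 38 (27.1%) and 3 (2.14%) for day 3, against 9.76% and 8.77% over all genes. The comparisons share the empty vector samples and single genes recur across them (Islr2 gives 7 of the 19 early lower calls), so these shares are a description, and the difference between the groups of genes was not tested.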

How the data were processed

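The values are the signal intensity of each probe set on a linear scale, deposited by the authors and computed with MAS5 per the submitters' processing notes, with no version given in the sources used here. Each RNA sample was hybridised to an A array (22690 probe sets) and a B array (22575), 140 arrays for 70 samples in 9 courses. Tested on the files, every array had a 2% trimmed mean of 2500 over the 100 normalization probe sets that both designs share, so all arrays stand on 1 scale. GEO's platform annotation names 1 gene for 35041 probe sets, several for 936 and none for 9160, beside 128 controls. Of the 18193 genes, 18032 were matched to RefSeq by gene ID. Promoters are RefSeq's, build GRCm38.p6.

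Differences were tested with limma 3.58.1 in R 4.3.3 on log2(signal + the 20th percentile of the table), A and B fitted separately. The fit held 63 samples, each course with a smooth curve of its own over the days (natural cubic spline, 3 df), and 31 residual df were left for eBayes with an intensity trend. The retinoic acid course was left out of it. Benjamini-Hochberg adjustment ran over all 11967 genes in each comparison, at 0.05. With 1 sample per course and day and no replicate cultures, a p-value measures scatter around the curves and not the spread between cultures. A knockdown effect and a difference between single cultures thus cannot be told apart, however small the p-value. The scripts were tested on simulated data: of 100 genes changed by 1 log2 unit and 100 by 2 in the Nanog course, 67% and 88% of the early changes were called with 8 false calls, and 68% and 93% of the transient ones with 6. The simulated scatter was independent between samples, with no part shared by day or culture. These numbers therefore do not give the rate of false calls in the real courses.

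The members, gene lists and tests were chosen with earlier results of these data known. Genes named in the text are the 12 members of highest score, the 3 on each side of the threshold, members in a gene list, up to 5 with the largest rise and 5 with the largest fall in each comparison, and members that passed upward in the transient contrast in at least 3 courses. Others are named by their known role as description, and Tiparp was singled out after its values were seen. The courses share day numbers. Residuals of the 55 same-day pairs of a knockdown and an empty vector sample correlated between -0.125 and 0.225, above 0.1 in 20 pairs. A small part shared by day may thus be present. The main fit did not pair samples by day, and counts with the day as a block are given below. Alternatives changed the pseudocount, normalization, gene filter, spline, trend, probe set, the samples in the fit and the day as a block. Figures were drawn with Python 3.11.15, pandas 2.3.3 and matplotlib 3.10.9. Knockdown of Dppa4, which the series' design names, was not analysed here.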

Additional observations from a re-analysis of the deposited data

Results flagged for a closer look

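The 8 empty vector samples of each of the 100 genes were searched for a single sample far from the rest (gap to the nearest sample over the whole range above 0.526, Dixon's value for 8 samples). Chance gives about 1 in 20, and 9 genes had such a sample. On day 0, 5730409E04Rik stood at 78.6 while its other 7 values lay between 12.4 and 32.1, Ptges at 1327.8 against 597.1 to 875.3, Ston2 at 674.2 against 190.3 to 300.3 and Ubxn2a at 885.8 against 164.1 to 284.8. Klb was at 87.9 on day 1, against 160.4 to 254.8, and Arfgef3 at 9.7 on day 4, against 35.1 to 70.3. On day 6, Csn3 was at 42.1 against 189.8 to 319.1, Krt20 at 20 against 117.8 to 198.3 and Prtg at 82.9 against 277.3 to 362.2.

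8 genes were higher than the empty vector in 1 knockdown and lower in another, both past the threshold, and the 2 knockdown courses were then compared directly with limma, adjusted over all genes. These pairs were picked for their opposite signs, so the sizes are a description of the widest contrasts. On days 1 to 3 Dusp9 was higher in Sox2 than in Tbx3 knockdown cells by 3.055 ± 0.168 (SE, log2, adjusted p = 2.38e-17), and Ptges, a prostaglandin E synthase, by 2.744 ± 0.184 (9.65e-15) between the same courses. Folr1 was higher in Nanog than in Tbx3 by 2.171 ± 0.207 (3.5e-10) on days 1 to 3 and by 2.133 ± 0.207 (3.47e-10) on days 4 to 6. Prph was higher in Sox2 than in Nanog by 2.54 ± 0.282 (9.18e-09) on the early days and 2.539 ± 0.282 (1.82e-08) on the late ones, and Prrx2 by 2.201 ± 0.254 (3.48e-08) on the late days. Cotl1, an actin-binding protein, was higher in Oct4 than in Esrrb by 2.042 ± 0.175 (4.81e-12) on days 1 to 3 and higher in Oct4 than in Mm343880 by 1.68 ± 0.176 (1.49e-09) on days 4 to 6. Tle6, a member of the Groucho family, was higher in Oct4 than in Tbx3 by 1.609 ± 0.246 (2.67e-06) on the early days and higher than in Mm343880 by 2.279 ± 0.248 (3.92e-09) on the late days. Atg16l2 was higher in Oct4 than in Tbx3 by 2.731 ± 0.43 (5.3e-06) on days 4 to 6. In all of these pairs but that of Dusp9, the lower call against the empty vector was lost when 1 of its samples was left out, with adjusted p-values of 0.0529 for Folr1 on the early days (without empty vector day 2) to 0.6 for Cotl1 in Mm343880 (without Mm343880 day 6).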

How the results depend on the processing

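Counts are gene and course pairs of the 100 genes that passed, of 700 on days 1 to 3 and on days 4 to 6 and of 800 for the transient contrast. They were 97 higher and 31 lower on days 1 to 3, 149 and 54 on days 4 to 6, and 15 and 15 for the transient contrast. Over 11 alternative settings, and with day 0 of every course left out, which was chosen after the data were seen, the counts of higher pairs were 72 to 112 on days 1 to 3 and 122 to 181 on days 4 to 6. With each sample left out in turn they were 71 to 105 and 127 to 153 higher, and 15 to 33 (15 without empty vector day 2) and 40 to 66 lower. Of 128 early calls 64 held in every version, and of 203 late calls 120, while 0 of 30 transient calls did. The transient contrast had 9 higher without a filter on low values, 4 higher and 7 lower with window means in place of the spline, and 7 to 17 higher and 8 to 17 lower with single samples left out. With another probe set 2 early or late calls turned, Car3 in Sox2 (-0.006) and Cubn in Mm343880 (-0.402). With the day as a replicate block the counts were 103 and 29, 139 and 54, and 11 and 16. The causes were not tested. Probe sets near the low end of the array have differences smaller than the true ones.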
